A study of Ovis aries with 16 samples.

Results

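Matrix glycoproteins and small proteoglycans were described in sheep fat through 10 genes, taken by symbol from a table of 28524 genes: FN1, THBS1, POSTN, SPARC, FBN1, MFAP5, DCN, BGN, LUM and FMOD. All 10 were in the table. RNA sequencing was done on 16 libraries of adipose tissue from female sheep, in 4 groups of 4: visceral fat of ewes exposed to bisphenol A (BPA) before birth, visceral fat of control ewes, subcutaneous fat of BPA ewes and subcutaneous fat of control ewes. BPA is a plastics chemical that can bind oestrogen receptors. Mothers of BPA ewes were injected under the skin with BPA in corn oil at 0.5 mg/kg each day between gestation days 30 and 90 of about 147, and mothers of control ewes were injected with corn oil alone. The ewes were kept on a maintenance diet and sampled at about 21 months. Mesenteric fat from around the ventral rumen sac stands for the visceral depot and sternal fat for the subcutaneous depot. Samples were frozen 24 hours after the last of 2 prostaglandin injections, in the follicular phase of the cycle. Each library is named here by the number that opens its title. There are 11 such numbers, of which 5 occur in both depots: controls 902, 924 and 928 and BPA ewes 918 and 977. Separate animals stand behind different numbers only as far as the titles show, so the p-values measure the spread between these libraries.

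Fat cells sit in an extracellular matrix that fibroblasts, progenitor cells and the fat cells themselves secrete. Fibronectin (FN1) is assembled into fibrils that cells grip through integrins. Thrombospondin 1 (THBS1), periostin (POSTN) and SPARC are matricellular proteins, which sit in the matrix and act on cells more than they bear load: THBS1 binds CD47 and can activate latent TGF-beta, POSTN binds integrins and supports collagen assembly, and SPARC binds collagen and is known to restrain fat cell differentiation in mice. Fibrillin 1 (FBN1) forms microfibrils, the scaffold of elastic fibres and a store for latent TGF-beta, and MFAP5 is a small glycoprotein bound to them. Decorin (DCN), biglycan (BGN), lumican (LUM) and fibromodulin (FMOD) are small leucine-rich proteoglycans, which bind collagen and set the width and spacing of its fibrils.

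The deposited values are whole-number read counts per gene. Totals ran between 6768945 and 14305764 counts in visceral BPA fat, 10998858 and 13110261 in visceral control fat, 3046126 and 4828287 in subcutaneous BPA fat, and 4738482 and 6223460 in subcutaneous control fat. The 10 genes together took between 0.357% and 0.814% of a library's counts. All 12 adipocyte markers examined, ADIPOQ, PLIN1 and LPL among them, were detected in each group, with summed levels of 13629 to 35562 CPM per library, where CPM is a gene's count scaled to a common library total. Over all tested genes, principal component 1 (32.8% of variance) separated the depots without overlap. Visceral BPA 977 stood apart from the other 15 libraries on component 2, and subcutaneous controls 902 and 924 lay apart on component 3. Results that rest on these libraries are given with and without them. In bulk tissue, fewer cells of a type and less RNA per cell cannot be told apart.

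The members differ widely in level. Levels between genes were compared as CPM per kilobase of the gene length in the deposited table. SPARC was the highest member in each group, at 974 ± 472 in visceral BPA fat, 1337 ± 440.1 in visceral control fat, 960 ± 601 in subcutaneous BPA fat and 957 ± 449 in subcutaneous control fat (CPM per kilobase, mean ± SD, n = 4). By this measure SPARC ranked 27, 13, 34 and 22 among the 28524 genes in those groups. FMOD was the lowest member throughout, at 4.16 ± 1.81, 3.08 ± 1.37, 0.985 ± 0.369 and 3.89 ± 1.54 CPM per kilobase in the same order of groups. SPARC and FMOD were each separated from their neighbour in the order by ranges that did not overlap, in all 4 groups. Between them, DCN, THBS1 and FBN1 held the next 3 places in every group, in differing order. In subcutaneous control fat DCN averaged 315 ± 87.9, FBN1 191 ± 30.4 and THBS1 147 ± 62.2 CPM per kilobase, and the ranges of FBN1 and THBS1 overlapped. The remaining members, LUM, FN1, MFAP5, POSTN and BGN, changed places between groups, and neighbours among them overlapped in most cases. FN1 is the one that moved most in this order: it took place 5 in visceral BPA fat, 9 in visceral control fat, 8 in subcutaneous BPA fat and 6 in subcutaneous control fat. The place in visceral BPA fat rests on library 977.

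**Figure D1:**
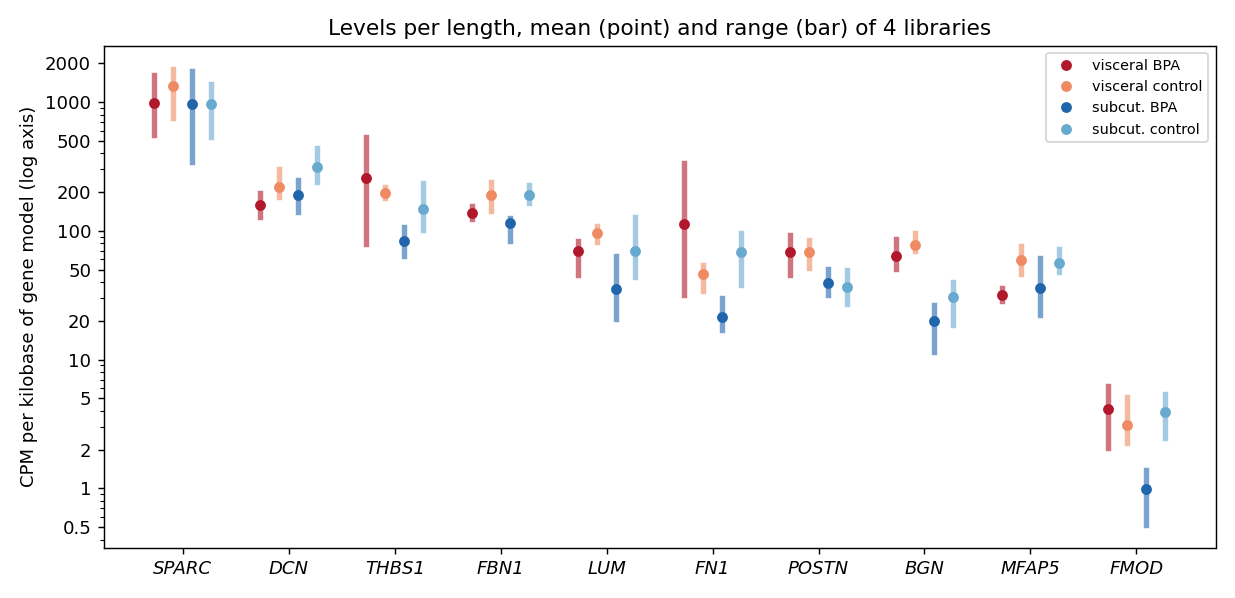
Level of each member per length, as CPM per kilobase of gene length on a log axis, in the 4 groups; points are group means and bars the range of 4 libraries. SPARC lies on top and FMOD at the bottom in each group, and FMOD is lowest in subcutaneous BPA fat at 0.985.

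The gene models of the members range over 986 bases for MFAP5 to 9568 for FBN1. FBN1 has 65 merged exon blocks and FN1 has 46 over 8350 bases, whereas LUM has 4 over 2190 and FMOD has 3 over 2590. None of 9 members shares exon bases with another gene in the table, and THBS1 shares 104 bases with FSIP1 on the opposite strand. Because the strand setting of the counting is not given in the sources used here, reads in those bases cannot be assigned between these genes. LUM and DCN lie next to each other on one strand, 33.1 kilobases apart, with 0 genes between them.

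Prenatal BPA was compared with control in subcutaneous fat first. FN1, the fibril-forming ligand of integrins, was 3.18-fold lower in BPA ewes and the only member called. That call was lost in 5 of 8 fits with 1 library left out and in 6 of 9 other settings, with the estimate below 0 in each. The proteoglycan FMOD and the microfibril gene FBN1 were lower in each BPA library than in each control library, but neither passed the threshold in edgeR. DESeq2 called both (DESeq2 adjusted p = 0.000553 for FMOD and 0.00317 for FBN1), but it called 464 genes of the table, against 96 in edgeR. Apart from single libraries left out, FMOD was called in 3 of 8 alternative settings and FBN1 in 1 of 9. Estimates for THBS1, MFAP5, DCN, BGN and LUM were also below 0 without passing, and SPARC and POSTN lay near 0. A gene was called at an adjusted p under 0.05 in the quasi-likelihood test of edgeR, adjusted over all genes tested by the Benjamini-Hochberg method. That made 1 of 10 members called, against 0.709% of all 13535 genes tested. Called lower in BPA fat, as FN1 was, were 0.103% of these genes. Estimates were below 0 for 8 of 10 members, against 50.8% of all genes. At an unadjusted p under 0.05 edgeR gave 8 of 10 members, all but SPARC and POSTN, against 14.2% of genes. Both counts of 8 include FMOD, which entered the test through the control group. The median log2 fold change was -0.74 over the members and -0.01 over all genes.

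FN1 measured 249.9, 148, 177 and 142 CPM in subcutaneous fat of BPA ewes 918, 922, 941 and 977, against 757, 803, 316 and 406 CPM in controls 902, 924, 928 and 931. The groups did not overlap, and controls 902 and 924 were the highest. The means were 179 ± 49.6 CPM in BPA fat and 570.4 ± 246 CPM in control fat (SD, n = 4 each), a log2 fold change of -1.67 ± 0.31 (SE; edgeR adjusted p = 0.0396). The call depends on single libraries, and on the genes under 200 bases in the table, as given below. Without control 902 the estimate was -1.50 (edgeR adjusted p = 0.133) and without control 924 it was -1.45 (adjusted p = 0.0859). It was also lost without BPA 922, 941 or 977 (edgeR adjusted p = 0.139, 0.108 and 0.101), with log2 estimates between -1.87 and -1.45 over all libraries left out in turn. With controls 902 and 924 both left out, the estimate was -1.001 (edgeR adjusted p = 0.247).

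FMOD, a collagen-binding proteoglycan with a role in fibril growth, was the least abundant member. It measured 2.89, 3.62, 2.35 and 1.35 CPM in BPA ewes 918, 922, 941 and 977, against 13.9, 6.38, 6.91 and 13.1 CPM in controls 902, 924, 928 and 931. These levels rest on 6 to 16 reads per BPA library and 37 to 89 reads per control library, so FMOD entered the test through the control group. All BPA values lay below all control values, and the log2 fold change was -1.96 ± 0.39 (SE; edgeR adjusted p = 0.0509). FBN1 measured 1169.7, 1194, 1202.5 and 801 CPM in the BPA ewes, against 2156, 1579, 1984 and 1584.5 CPM in the controls, in the same order of numbers. Its log2 fold change was -0.74 ± 0.19 (SE; edgeR adjusted p = 0.119). With FMOD counted, 3 of 10 members thus had groups that did not overlap, FN1, FMOD and FBN1, against 7.45% of all genes tested.

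The other members overlapped between BPA and control fat. MFAP5, the microfibril partner of FBN1, ranged over 21.8 to 60.1 CPM in BPA fat and 47.1 to 71.0 CPM in control fat (log2 -0.65 ± 0.28; edgeR adjusted p = 0.329). Of the proteoglycans, DCN measured 265 to 468 CPM in BPA fat and 452 to 828 CPM in control fat (log2 -0.73 ± 0.22, edgeR adjusted p = 0.184). DESeq2 called DCN (DESeq2 adjusted p = 0.0462), which was 1 of 9 alternative settings apart from single libraries left out. LUM ranged over 45.6 to 139.5 CPM in BPA fat and 96.7 to 278 CPM in control fat (log2 -0.97 ± 0.39; edgeR adjusted p = 0.301). These 3 genes had lower means in BPA fat and passed the edgeR test at an unadjusted p under 0.05, but not after adjustment over 13535 genes. BGN ranged over 24.9 to 58.0 CPM in BPA fat and 40.7 to 88.0 CPM in control fat (log2 -0.61 ± 0.27; edgeR adjusted p = 0.346). THBS1 measured 371 to 622 CPM in BPA fat and 581 to 1367 CPM in control fat (log2 -0.82 ± 0.28; edgeR adjusted p = 0.221). SPARC and POSTN had the same mean within error: SPARC spanned 768 to 3917 CPM in BPA fat and 1209.6 to 3146 CPM in control fat (log2 0.00 ± 0.46), and POSTN spanned 106 to 167 CPM in BPA fat and 90.3 to 165 CPM in control fat (log2 0.10 ± 0.22).

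**Figure D2:**
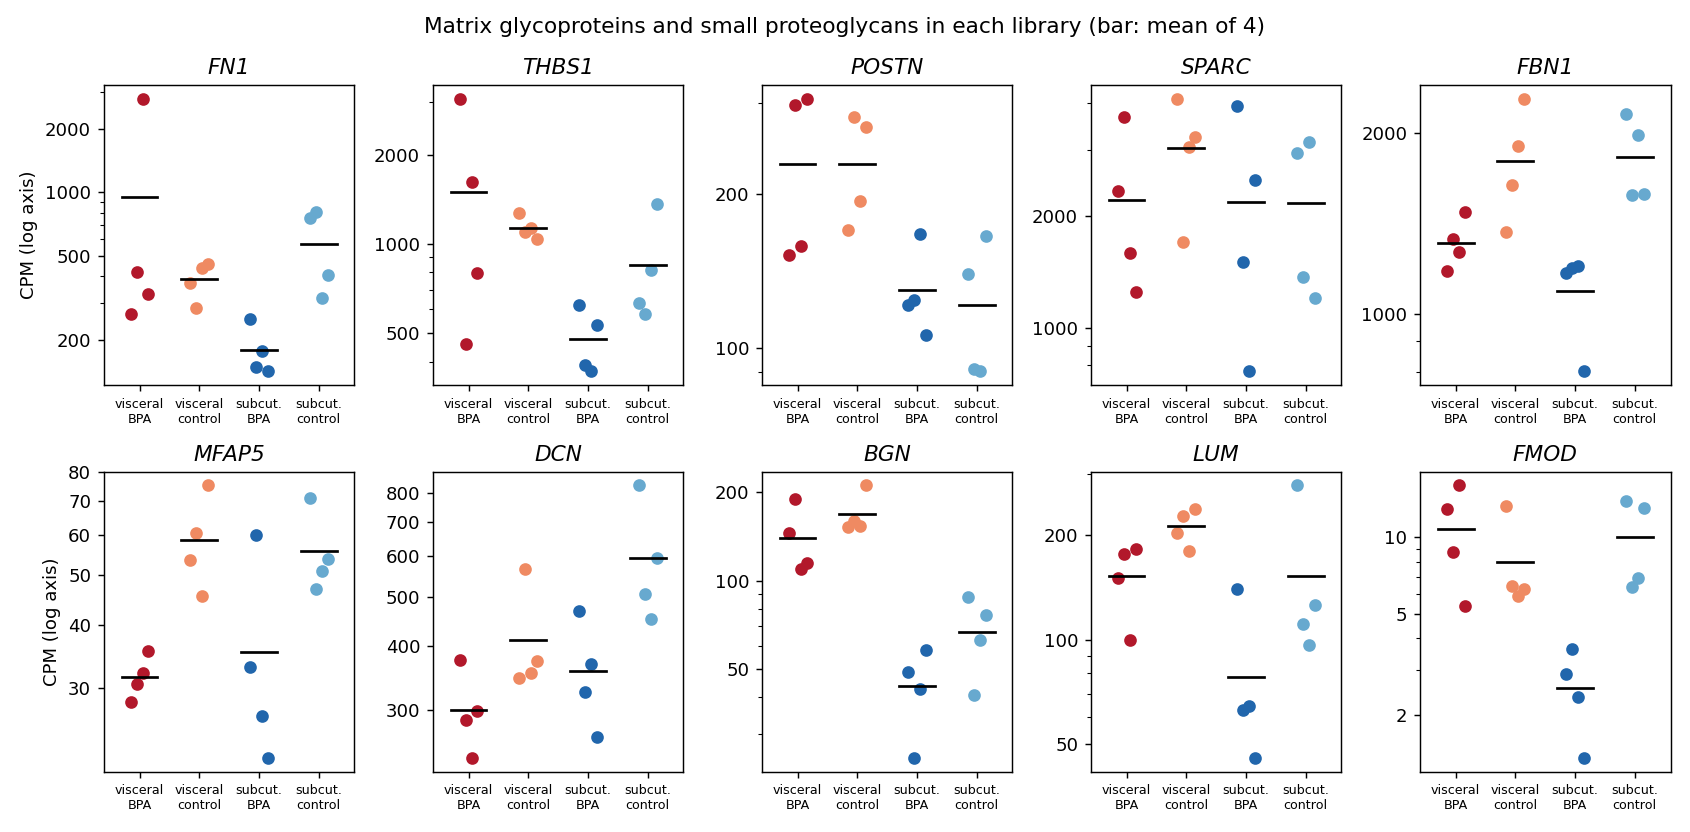
CPM of each member in every library on log axes, 1 panel per gene, with group means as bars across the points. FN1 in visceral BPA fat has 1 library at 2787 CPM, and the subcutaneous BPA points of FN1, FMOD and FBN1 all lie under their controls.

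Other measures moved with this comparison. Summed levels of 11 fibroblast and progenitor markers were 3702 to 7098 CPM in BPA fat and 6585 to 9921 CPM in control fat, with 10 of 11 estimates below 0 and THY1 called lower. The collagen genes COL1A1, COL1A2 and COL3A1 are in that list. Macrophage markers summed to 358 to 550.3 CPM in BPA fat and 635 to 887 CPM in control fat, with all 9 tested markers below 0 and TYROBP called lower. Adipocyte markers had 12 of 12 estimates above 0 and none called. Smooth muscle markers summed to 977 to 1363 CPM in BPA fat and 676 to 912 CPM in control fat, with 9 of 9 above 0 and 1 called higher. All 8 endothelial and all 4 tested lymphocyte markers had estimates below 0, and none was called. Genes under 200 bases took 0.676% to 1.33% of counts in BPA fat and 0.355% to 0.459% in control fat. Library totals of the groups overlapped, at 3046126 to 4828287 counts in BPA fat and 4738482 to 6223460 in control fat. None of the fibroblast, macrophage or adipocyte markers tested was at 0 in a whole group. The part of these measures in the result for FN1 was not tested. Once the genes shorter than 200 bases were dropped before fitting, FN1 had nearly the same log2 fold change, -1.66 ± 0.31, and no longer passed (edgeR adjusted p = 0.157).

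In visceral fat, BPA ewes did not differ from control ewes in any member by the test. MFAP5 showed the clearest separation, lower in every BPA library than in every control library, and FN1 was far higher in 1 BPA library. No gene of the table was called: 0 of 10 members, against 0% of 14774 genes tested, with the smallest edgeR adjusted p at 0.658. At an unadjusted p under 0.05, edgeR gave 4 of 10 members, against 7.47% of genes, and DESeq2 called 1 member and 5 genes in all after adjustment. Estimates were below 0 for 7 of 10 members, against 49.7% of genes.

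MFAP5 measured 28.1, 30.6, 32.1 and 35.4 CPM in visceral fat of BPA ewes 910, 918, 977 and 984, against 53.5, 60.7, 45.5 and 75.3 CPM in controls 902, 908, 924 and 928. The groups did not overlap, which held for 1 of 10 members and 4.02% of all genes. The means were 31.6 ± 3.06 CPM in BPA fat and 58.7 ± 12.6 CPM in control fat (SD, n = 4 each), a log2 fold change of -0.90 ± 0.18 (SE; edgeR adjusted p = 0.658). MFAP5 stood second among all 14774 genes by p-value, and it was the member that DESeq2 called (DESeq2 adjusted p = 0.0435). Its microfibril partner FBN1 spanned 1176 to 1478 CPM in BPA fat and 1369.8 to 2287 CPM in control fat (log2 -0.45 ± 0.18), so that the groups overlapped. Endothelial markers moved with the visceral comparison: they summed to 2442 to 2780.5 CPM in BPA fat and 2986 to 3229.6 CPM in control fat, with 8 of 8 estimates below 0 and none called. Their part in the MFAP5 difference was not tested.

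FN1 measured 266, 421, 2787 and 330.1 CPM in visceral fat of BPA ewes 910, 918, 977 and 984, against 373, 283, 439.9 and 457 CPM in controls 902, 908, 924 and 928. A single library, BPA 977, set the direction: the log2 fold change was 1.30 ± 0.67 with it and -0.20 ± 0.21 without it (SE; edgeR adjusted p = 0.989 without it). The same library had the highest mesothelial marker sum, 291 CPM against 30.0 to 108 CPM in the other 7 visceral libraries. Smooth muscle markers had 9 of 9 estimates above 0 for BPA in visceral fat and none called. Library 977 also had a fibroblast marker sum of 6741 CPM, against 2529 to 4853 CPM in the other visceral BPA libraries, and the smallest total of visceral fat. Genes under 200 bases took 1.13% of its counts, against 0.253% to 0.681% in the other 7 visceral libraries. Its adipocyte marker sum of 18859 CPM was the lowest and its lymphocyte marker sum of 63.6 CPM the highest of the 8 visceral libraries. The part of these measures in the FN1 level was not tested. THBS1 likewise varied within the BPA group, at 3091, 459, 1619 and 797 CPM in BPA ewes 910, 918, 977 and 984, against 1271, 1098, 1131 and 1038 CPM in controls. Its log2 fold change was 0.40 ± 0.46 with all libraries and -0.24 without BPA 910.

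The proteoglycans and the other matricellular genes overlapped between visceral groups. DCN spanned 241 to 375 CPM in BPA fat and 346 to 567 CPM in control fat (log2 -0.45 ± 0.20). LUM spanned 100.1 to 182 CPM in BPA fat and 179.9 to 238 CPM in control fat (log2 -0.48 ± 0.20). BGN spanned 109.5 to 189 CPM in BPA fat and 152 to 211 CPM in control fat (log2 -0.28 ± 0.20). All 3 estimates were below 0 and none passed the threshold. FMOD was at 5.35 to 16.1 CPM in BPA fat and 5.87 to 13.3 CPM in control fat (log2 0.43 ± 0.39). SPARC was at 1248.5 to 3657 CPM in BPA fat and 1699 to 4106 CPM in control fat (log2 -0.46 ± 0.34). POSTN was at 152 to 306 CPM in BPA fat and 169.97 to 282 CPM in control fat (log2 0.00 ± 0.27). For these 3 genes the differences were of the order of their standard errors or smaller, and the groups overlapped.

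**Figure D3:**
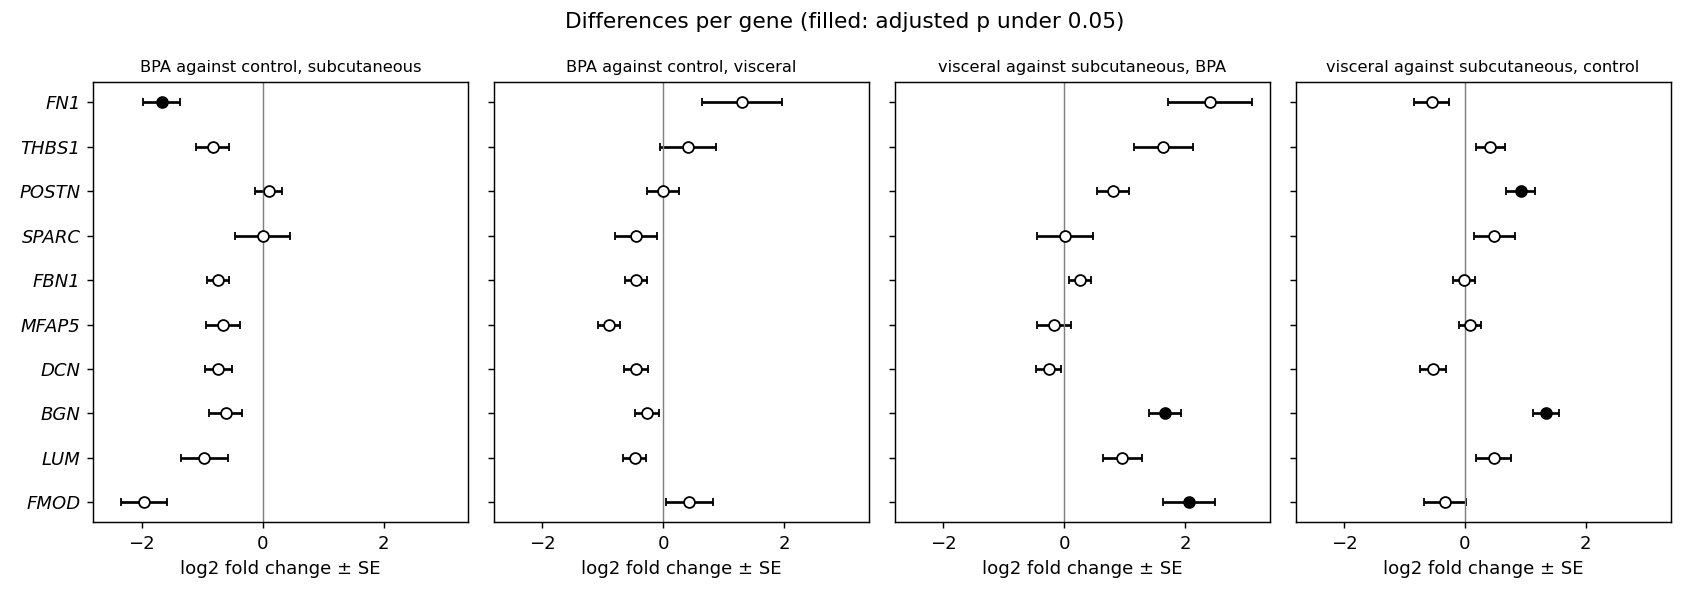
Log2 fold change of each member with its standard error in 4 comparisons, 1 panel each: the BPA effect within each depot, and the depot difference within BPA and within control ewes. Filled points are called at an edgeR adjusted p under 0.05: FN1 for BPA in subcutaneous fat, BGN and POSTN between depots in control ewes, and BGN and FMOD between depots in BPA ewes.

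Visceral fat was then compared with subcutaneous fat in control ewes. BGN, a collagen-binding proteoglycan, rose 2.54-fold in visceral fat, and POSTN, the matricellular integrin ligand, rose 1.89-fold. In this fit, which holds no block for the number, the other 8 members did not pass the threshold. THBS1 and DCN passed with the block, as given below. Estimates of the 8 lay on both sides of 0, and FBN1 and MFAP5 lay near 0. Called members were 2 of 10, against 13.3% of all 14456 genes tested, and estimates were above 0 for 6 of 10, against 49.4%.

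BGN measured 152, 159, 153.5 and 211 CPM in visceral fat of controls 902, 908, 924 and 928, against 88.0, 40.7, 63.0 and 76.0 CPM in subcutaneous fat of controls 902, 924, 928 and 931. Each visceral value lay above each subcutaneous value, and the log2 fold change was 1.34 ± 0.22 (SE; edgeR adjusted p = 0.00359). POSTN measured 169.97, 282, 194 and 269 CPM in the visceral libraries, against 139.8, 91.4, 90.3 and 165 CPM in the subcutaneous ones, in the same order of numbers. These groups did not overlap either, which held for 2 of 10 members and 19.9% of all genes. The log2 fold change of POSTN was 0.92 ± 0.23 (SE; edgeR adjusted p = 0.0271). POSTN lost its call without visceral control 908 or 928 or subcutaneous control 924 or 928 (edgeR adjusted p = 0.0711, 0.0795, 0.0746 and 0.0718), and without subcutaneous controls 902 and 924 together (edgeR adjusted p = 0.123). BGN kept its call in each of these fits.

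Controls 902, 924 and 928 gave both depots. Numbers found in 1 depot only add nothing to the depot estimate of an edgeR fit with the number as a block. The block values here therefore rest on these 3 controls. With the number as a block, 4 members were called in control ewes: BGN (log2 1.48 ± 0.20; edgeR adjusted p = 0.00119), POSTN (0.98 ± 0.21; adjusted p = 0.0108), THBS1 (0.78 ± 0.17; adjusted p = 0.0099) and, lower in visceral fat, DCN (-0.67 ± 0.19; adjusted p = 0.0314). With the block, 2631 genes of the whole table were called, against 1928 of 14456 genes (13.3%) without it. Calls thus rose over the whole table as well as among the members. Without the block THBS1 was at 0.42 ± 0.25 (edgeR adjusted p = 0.271) and DCN at -0.53 ± 0.22 (edgeR adjusted p = 0.138). In these 3 animals the visceral level of BGN was 1.73, 3.77 and 3.35 times the subcutaneous one, and that of POSTN was 1.22, 2.12 and 2.98 times. THBS1 was 2.01, 1.95 and 1.27 times as high, and DCN 0.418, 0.702 and 0.828 times. All 3 animals therefore had the same direction for each of these 4 genes. FN1 had no common direction, at 0.493, 0.548 and 1.45 times, the last in animal 928.

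**Figure D4:**
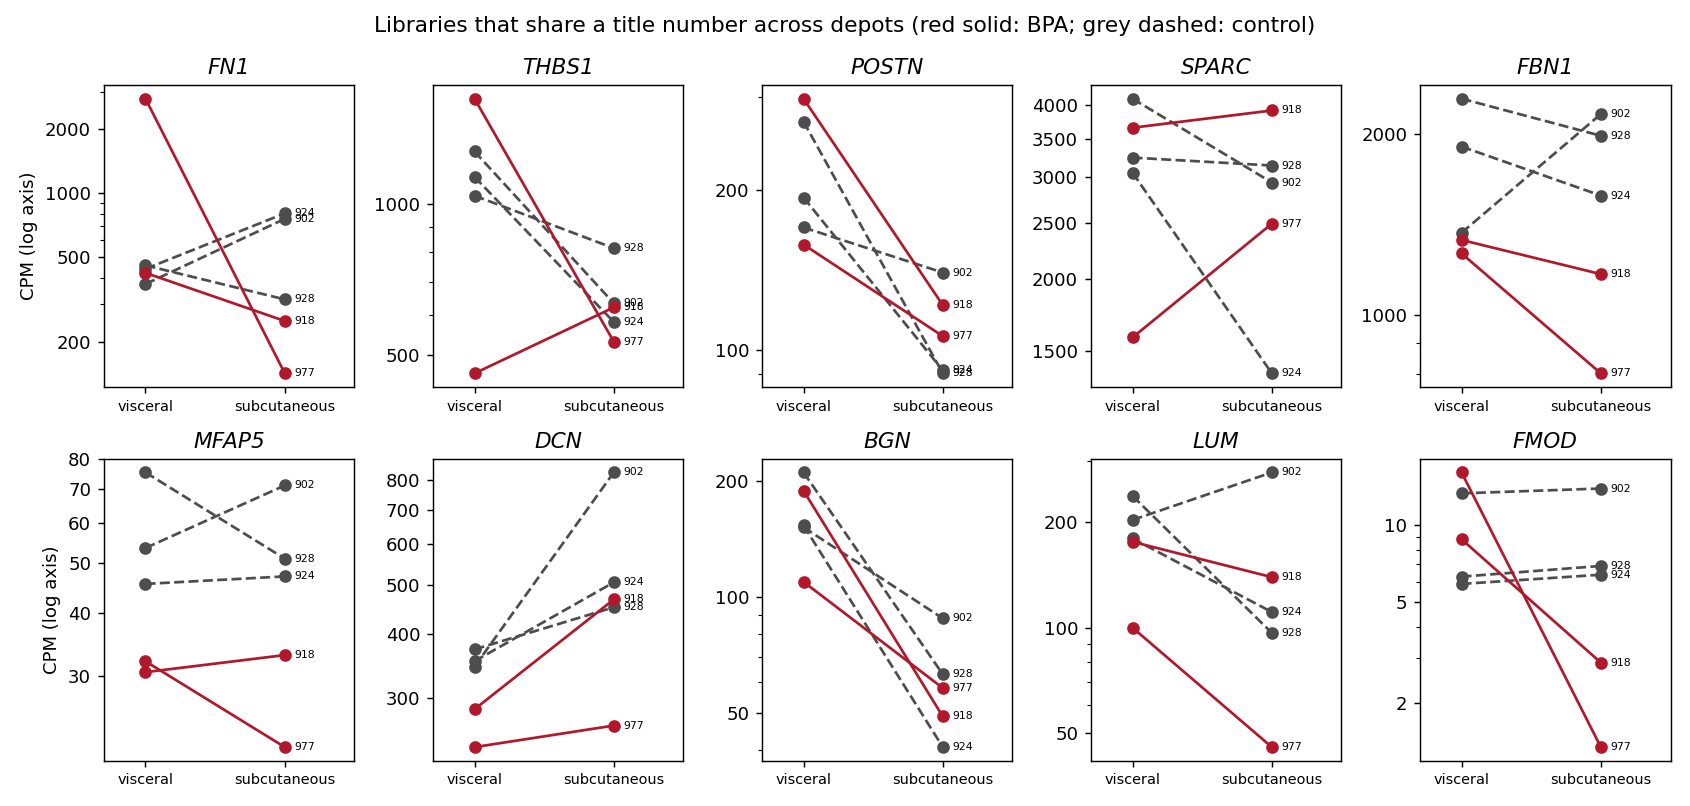
CPM of each member in visceral and in subcutaneous fat of the 5 animal numbers found in both depots, on log axes, with a line joining the libraries of a number. BGN and POSTN are higher in visceral fat in each of the 5, and FN1 in BPA 977 is 19.7 times as high in visceral fat; the libraries of 977 did not match each other best over all genes, so its line joins a shared number only.

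The remaining members in control ewes were LUM, FN1, SPARC, FMOD, MFAP5 and FBN1. LUM had a log2 fold change of 0.48 ± 0.29 (edgeR adjusted p = 0.288), with subcutaneous control 902 at 278 CPM against 96.7 to 126 CPM in the other 3. Without that library LUM was called (log2 0.94; edgeR adjusted p = 0.00755). Without subcutaneous control 931, THBS1 was called as well (log2 0.76; edgeR adjusted p = 0.0198). FN1 averaged 388 ± 79.2 CPM in visceral fat and 570.4 ± 246 CPM in subcutaneous fat (log2 -0.55 ± 0.29), and its sign turned without subcutaneous controls 902 and 924 (log2 0.094). SPARC (0.49 ± 0.34) and FMOD (-0.33 ± 0.35) overlapped between depots and did not pass, and FBN1 was at -0.01 ± 0.19 and MFAP5 at 0.08 ± 0.18.

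The depots also differed in markers of other cells. In control ewes, fibroblast and progenitor markers summed to 2868 to 4201 CPM in visceral fat and 6585 to 9921 CPM in subcutaneous fat, with 5 of 11 called lower and none higher. Mesothelial markers summed to 51.9 to 107.5 CPM in visceral fat and 4.08 to 9.36 CPM in subcutaneous fat. Of 6 tested, 5 were called higher, against 7.17% of all genes. LRRN4 was at 0 in all subcutaneous libraries, and WT1 and UPK3B averaged 0.0512 and 0.372 CPM in subcutaneous control fat. LRRN4, WT1 and UPK3B thus entered the test through the visceral group. CALB2 of the same list was at 0 in all visceral BPA libraries. Smooth muscle markers summed to 964 to 1756 CPM in visceral fat and 676 to 912 CPM in subcutaneous fat, with 9 of 9 estimates above 0 and none called. Adipocyte markers had 11 of 12 estimates above 0, with ADIPOQ, LPL and DGAT2 called higher in visceral fat. KDR and FLT1 of 8 endothelial markers and MRC1 of 9 macrophage markers were also called higher, and none of 7 lymphocyte markers was called. The part of these markers in the levels of BGN and POSTN was not tested.

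In BPA ewes the depots were compared in the same way. BGN rose 3.19-fold in visceral fat. FMOD was 4.17-fold higher there, but it had only 6 to 16 reads per subcutaneous library and passed the low-count filter through the visceral group. FN1, THBS1, POSTN and LUM had estimates between 0.81 and 2.41 on the log2 scale without passing, and DCN, FBN1, MFAP5 and SPARC stayed within 0.26 of 0. Called members were 2 of 10 with FMOD counted, against 9.07% of all 13782 genes, and estimates were above 0 for 8 of 10, against 52% of genes.

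BGN measured 145, 189, 109.5 and 114 CPM in visceral fat of BPA ewes 910, 918, 977 and 984, against 48.9, 24.9, 42.9 and 58.0 CPM in subcutaneous fat of BPA ewes 918, 922, 941 and 977 (log2 1.67 ± 0.27; edgeR adjusted p = 0.00727). FMOD measured 12.95, 8.78, 16.1 and 5.35 CPM in the visceral libraries, against 2.89, 3.62, 2.35 and 1.35 CPM in the subcutaneous ones (log2 2.06 ± 0.43; edgeR adjusted p = 0.0180). BGN, FMOD and FN1 were the 3 of 10 members whose depots did not overlap, against 18.6% of all genes. FMOD lost its call without subcutaneous BPA 941 (edgeR adjusted p = 0.0557) and in voom without a block (log2 1.88; limma adjusted p = 0.0565), and it passed the filter on low counts through the visceral group. FN1 averaged 951 ± 1226 CPM in visceral fat and 179 ± 49.6 CPM in subcutaneous fat, a log2 fold change of 2.41 ± 0.70 (SE; edgeR adjusted p = 0.0544).

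Visceral BPA 977 weighs on several of these values. Without it, 5 members were called, all higher in visceral fat: BGN (log2 1.77), FMOD (1.81), LUM (1.12), POSTN (0.95) and FN1 (0.92 ± 0.23, edgeR adjusted p = 0.0269). Calls over the whole table moved as well, being 1250 with all libraries and 369 to 2206 with 1 library left out in turn. THBS1 was at 1.64 ± 0.49 (edgeR adjusted p = 0.0596) with all libraries and was called without visceral BPA 918 (log2 1.94; edgeR adjusted p = 0.0288). LUM was also called without subcutaneous BPA 918 (log2 1.40; edgeR adjusted p = 0.0204). Fibroblast and progenitor markers summed to 2529 to 6741 CPM in visceral BPA fat and 3702 to 7098 CPM in subcutaneous BPA fat, and mesothelial markers to 30.0 to 291 CPM in visceral BPA fat and 1.86 to 5.65 CPM in subcutaneous BPA fat. Macrophage markers summed to 554 to 1209.6 CPM in visceral BPA fat and 358 to 550.3 CPM in subcutaneous BPA fat, with 9 of 9 estimates above 0 and CD68, TYROBP and CD14 called higher. The endothelial markers KDR and FLT1 were called higher too, and 4 of 4 lymphocyte and 8 of 9 smooth muscle markers had estimates above 0 with none called. Their part in these differences was not tested.

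**Figure D5:**
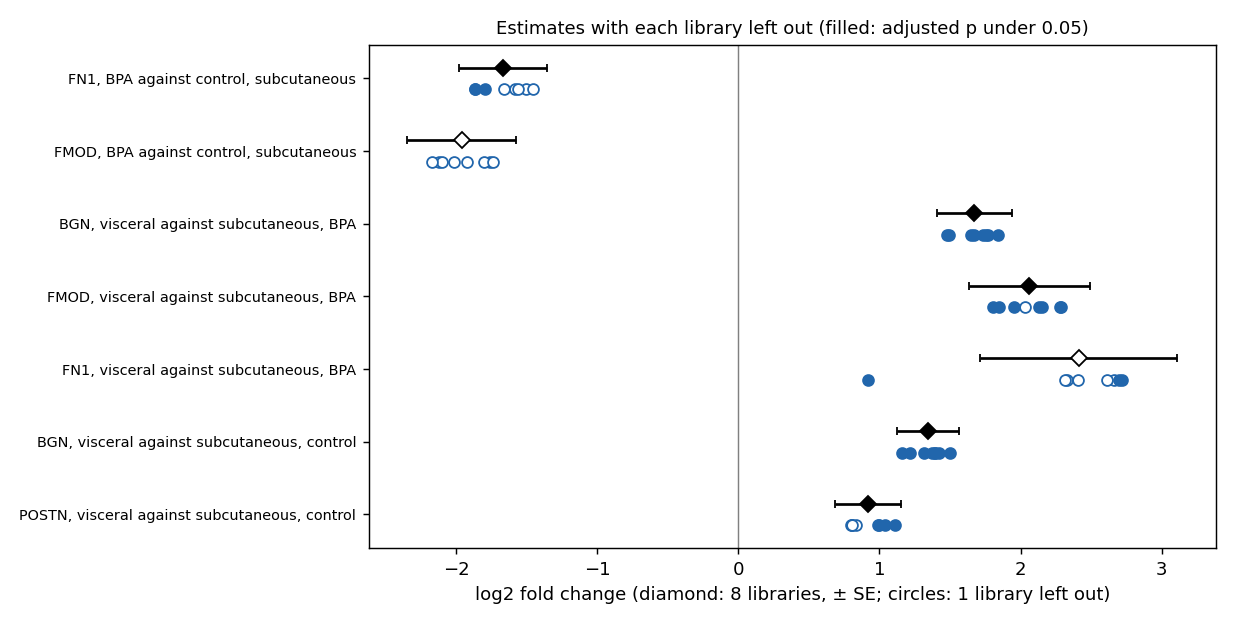
Log2 fold changes of FN1, FMOD, BGN and POSTN in 7 pairs of gene and comparison; diamonds with SE use 8 libraries, circles leave out 1 library each, and filled symbols are called. FN1 for BPA in subcutaneous fat stays between -1.87 and -1.45 with most circles open, BGN is filled throughout, and FN1 between depots in BPA ewes drops to 0.92 in the fit without visceral BPA 977.

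The depot comparisons share no library with each other, but each shares its libraries with the BPA comparisons, so a level that is low in 1 group enters several contrasts. The subcutaneous BPA group, low in FN1 and FMOD, is the example: FMOD averaged 10.8 ± 4.69 CPM in visceral BPA fat, 7.97 ± 3.56 CPM in visceral control fat, 2.55 ± 0.955 CPM in subcutaneous BPA fat and 10.1 ± 3.98 CPM in subcutaneous control fat. Whether the BPA effect differed between depots was tested as an interaction over all 16 libraries, taking the visceral effect minus the subcutaneous one. None of 10 members was called, against 0% of 14793 genes, and the smallest edgeR adjusted p was 0.649. At an unadjusted p under 0.05 edgeR gave FMOD and FN1, 2 of 10 members, against 6.2% of genes, and DESeq2 called 0 members and 11 genes of the table after adjustment. FMOD had the largest such difference relative to its error, 2.39 ± 0.58 on the log2 scale (SE; edgeR adjusted p = 0.649). FN1 was at 2.96 ± 0.82 (edgeR adjusted p = 0.649), and at 1.48 ± 0.41 without visceral BPA 977 (edgeR adjusted p = 0.745). The other 8 members, THBS1 (1.22 ± 0.59) the nearest among them, did not reach that level. Estimates were above 0 for 7 of 10 members, against 51.9% of genes.

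The wider set of genes around these members was listed by role: 11 other small leucine-rich proteoglycans, 15 other microfibril and elastic fibre genes, 18 other matricellular and adhesive glycoproteins, 17 receptors and 16 genes of the TGF-beta pathway. None of them was called for BPA in either depot or for the difference of both effects. In subcutaneous fat, estimates for BPA were below 0 for 5 of 5 tested proteoglycans (median log2 -0.66), 12 of 14 microfibril genes (-0.38), 12 of 17 matricellular genes (-0.20), 11 of 15 receptors (-0.13) and 14 of 16 TGF-beta genes (-0.16). In visceral fat the medians were -0.11, -0.13, -0.17, -0.19 and 0.04 in the same order of lists.

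Between depots, called genes went both ways. Over all genes tested, 13.3% were called between depots in control ewes and 9.07% in BPA ewes. Of the proteoglycans, PRELP and ECM2 rose and PODN fell in visceral fat of control ewes, 3 of 6 tested. PRELP averaged 133 ± 24.1 CPM in visceral fat and 82.1 ± 20.3 CPM in subcutaneous fat in control ewes (log2 0.70 ± 0.19; edgeR adjusted p = 0.0329). It was the only proteoglycan of 5 tested that was called in BPA ewes (log2 1.34 ± 0.25; edgeR adjusted p = 0.0133). Of 14 microfibril genes in control ewes, 5 rose and 1 fell. EFEMP1, which codes for fibulin 3, averaged 274 ± 27.3 CPM in visceral fat and 85.6 ± 19.9 CPM in subcutaneous fat (log2 1.69 ± 0.17; edgeR adjusted p = 0.000273). LTBP2 and FBLN5 rose too (log2 1.69 and 0.93), and FBLN1 fell (-0.64). In BPA ewes 4 of 14 rose and none fell: EFEMP1 (2.03), LTBP2 (1.78), LTBP1 (1.43) and FBLN5 (1.05). LTBP1 and LTBP2 are latent TGF-beta binding proteins in name, and FBLN5 helps assemble elastic fibres.

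Of 16 other matricellular genes in control ewes, 4 rose in visceral fat and 1 fell. SMOC1, which like SPARC binds calcium, averaged 323 ± 58.4 CPM in visceral fat and 120.3 ± 33.5 CPM in subcutaneous fat (log2 1.43 ± 0.21; edgeR adjusted p = 0.00222). NID1, a basement membrane protein, and SPARCL1, a relative of SPARC, rose (log2 0.87 and 1.06), and CCN5 fell (-1.03). In BPA ewes SPP1 (log2 3.09), TNC (2.11) and SPARCL1 (1.01) rose among 17 tested, and CCN5 fell (-1.06). SPP1, or osteopontin, averaged 17.7 ± 10.1 CPM in visceral fat and 2.11 ± 1.13 CPM in subcutaneous fat of BPA ewes. The latter is a low level like that of FMOD in the same libraries (mean 2.55 CPM). In control ewes SPP1 averaged 17.9 ± 10.7 CPM in visceral fat and 19.3 ± 21.4 CPM in subcutaneous fat. Of 15 receptors, the integrin chain ITGB3 (log2 -0.84) and the syndecan SDC4 (-0.50) fell in control ewes and none was called in BPA ewes. The 2 of 15 in control ewes lie near the 13.3% of all genes called there. Of 16 TGF-beta genes, ENG and SKIL rose (log2 0.74 and 0.69) and SMAD3 and TGFB3 fell (-0.96 and -1.21) in control ewes. In BPA ewes TGFB1 and ENG rose (log2 1.04 and 1.19) and SMAD3 fell (-1.04). Among the receptors, the integrin chain ITGB1 averaged 676 to 867 CPM per group, and CD47, which binds THBS1, averaged 125 to 178 CPM.

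Within groups, the members did not vary as one. Over log2 CPM centred on each group's mean, in 16 libraries that share depth and scaling, the 45 pairs of members had a median Pearson correlation of 0.088 and a range of -0.487 to 0.794. The highest was that of the neighbours DCN and LUM (r 0.794, Spearman's rho 0.797, and r 0.736 without the 2 libraries farthest from the median), and MFAP5 with FBN1 had r 0.567. The genes most like a member by this measure, among 14783 compared, were COL4A1 for SPARC (r 0.969, rho 0.95, and 0.953 without the 2 farthest libraries) and TMEM106A and DNMT1 for FN1 (r 0.942 and 0.93). For FN1 these values were 0.885 and 0.823 without the 2 farthest libraries, one of which is visceral BPA 977. The nearest genes for the other members were TSGA10 for THBS1 (r 0.914), DENR for POSTN (0.828), TFCP2 for FBN1 (0.839), ASPHD2 for MFAP5 (0.854), TMEM263 for DCN (0.862), MPP1 for BGN (0.897), CSDC2 for LUM (0.909) and MCUB for FMOD (0.869). These values are descriptions of 16 libraries, and the highest of so many correlations lies far from 0 in any such search.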

How the data were processed

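RNA went through ribosome depletion into a low-input library kit, per the labels' protocols. The submitters' processing notes name STAR 2.6.0c, featureCounts of Subread 1.6.1, FastQC 0.11.5 and MultiQC 0.9. Genome build, annotation and strandedness were not given in the sources used, so no positions or sequences are printed. The deposited table calls its values normalized, but 0 of them are other than whole numbers and totals differ between 3046126 and 14305764, so the authors' values were taken as raw counts. Its gene lengths gave CPM per kilobase, and gene models came from its exon columns.

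Genes passing filterByExpr (default minimum count 10, minimum total 15) were scaled by TMM and tested with edgeR 4.0.16 (glmQLFit, glmQLFTest, two-sided) in R 4.3.3, each pairwise comparison on 8 libraries. P-values were adjusted by Benjamini-Hochberg over all genes tested, and values under 0.05 were called. Standard errors came from the estimate and the test. CPM are counts over the TMM-scaled total, with 1 scaling for 16 libraries. The tests recovered known changes in counts simulated with the spread that edgeR itself had fitted. Those counts held no outlying library and no pairing, so they do not speak to either.

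All 10 members are described in every comparison; of 77 listed pathway genes (76 in the table), at most 4 called ones per list and comparison are named, with PODNL1 taken under its LOC identifier. The members, lists, markers and tests were chosen with earlier results of these data known. Alternatives were DESeq2 1.42.0, its size factors, no filter, 50 counts in 4 libraries, a 16-library fit, limma 3.58.1 voom, the title number as a block, genes under 200 bases left out, and libraries left out.

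Whether a title number pairs libraries was checked by correlating deviations from the group mean over 14793 genes. It was 0.287, 0.4 and 0.332 for controls 902, 924 and 928, each its own best match, so these were taken as pairs in the block fit. It was 0.167 for BPA 918, also its own best match. For BPA 977 it was 0.0313, and its libraries matched 941 and 910 best, so the BPA block stands only among the alternatives. The main fits, the interaction among them, hold no block and treat libraries of a shared number as separate. All replicate pairs differed beyond sampling noise.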

Additional observations from a re-analysis of the deposited data

Results flagged for a closer look

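In 6 of 40 groups of 4 values, 1 library stood apart from the other 3, by a gap that takes most of the group's range (Dixon's 95% limit); chance gives this in about 1 group in 20. FN1 was at 2787 CPM in visceral BPA 977, against 266 to 421 CPM in the other visceral BPA libraries. FBN1 was at 801 CPM in subcutaneous BPA 977, below 1169.7 to 1202.5 CPM in the others of its group. Both libraries carry the number 977, and their deviations from the group means correlated at 0.0313 over genes. The other 4 are control libraries, each above the rest of its group. BGN was at 211 CPM in visceral control 928 (others 152 to 159), DCN at 567 CPM in visceral control 908 (others 346 to 374), FMOD at 13.3 CPM in visceral control 902 (others 5.87 to 6.44) and LUM at 278 CPM in subcutaneous control 902 (others 96.7 to 126).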

How the results depend on the processing

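Over the members' log2 fold changes, 833 of 929 alternative values kept direction and side of the threshold, 18 lost a call, 35 gained one and 43 changed sign; the cause of these changes was not tested unless named. For BPA in subcutaneous fat 1 member was called, against 4 with DESeq2, 2 with DESeq2 size factors or no filter, and 0 with 50 counts in 4 libraries, the 16-library fit, voom with or without the replicate block, short genes left out, or controls 902 and 924 left out (0 to 1 without single libraries). The whole table had 96 calls there, against 464 with DESeq2, 173 with no filter, 54 with 50 counts in 4 libraries, 46 in the 16-library fit, 1 in each voom fit, 1 without short genes and 0 without both controls, and 32 to 128 without single libraries. In visceral fat DESeq2 called 1 member and 5 genes, against 0; single libraries left out gave 0 and 0. Between depots in control ewes 2 members were called, 4 with the replicate block and 1 to 3 without single libraries; table counts were 1928, 2631 with the block, 1138 without both controls and 1043 to 1755 without single libraries. In BPA ewes 2 members were called, 5 with DESeq2 or the 16-library fit, 4 with no filter, the block or voom without it, and 6 with voom and block (1 to 5 without single libraries); table counts were 1250, 2197 with DESeq2, 2408 in the 16-library fit, 2300 and 1971 with voom with and without block, and 369 to 2206 without single libraries. The difference of BPA effects had 0 members throughout, and 0 genes against 11 with DESeq2 and 19 with the block. In the fits with the replicate block, BPA number 977 is not shown to pair its libraries, whereas those of 918 matched each other best. The edgeR block fit of the depots in BPA ewes rests on these numbers alone, 918 and 977.

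The FN1 call in subcutaneous fat was also lost with 50 counts in 4 libraries (log2 -1.69; edgeR adjusted p = 0.0515), in the 16-library fit (-1.67; adjusted p = 0.241) and with voom (-1.68 with the block, limma adjusted p = 0.331; -1.60 without, adjusted p = 0.309), while its estimate stayed below 0 in every fit. FMOD there gained a call with DESeq2 (adjusted p = 0.000553), its size factors (0.0493) and no filter (0.0269); FBN1 (0.00317) and DCN (0.0462) gained one with DESeq2. FMOD between depots in BPA ewes lost its call in voom without block (limma adjusted p = 0.0565). Signs turned for values near 0 and for some larger ones. The larger ones included FN1 (main fit 1.30) and THBS1 (0.40) for BPA in visceral fat. FN1 between depots in control ewes (-0.55) and THBS1 for the difference of BPA effects (1.22) turned as well. For BPA in subcutaneous fat SPARC was -0.014 with 50 counts in 4 libraries, -0.091 with voom and block and -0.11 without block, and -0.43 to 0.29 without single libraries, as POSTN was -0.044 to 0.28. In visceral fat POSTN was 0.0018 with DESeq2, 0.0020 with its size factors and -0.18 to 0.15 without single libraries, FN1 was -0.20 to 1.61 and THBS1 -0.24 to 0.70, with THBS1 at -0.044 by voom with block. Between depots in control ewes FN1 was 0.094 and FBN1 0.0033 without both controls; without single libraries FBN1 was -0.15 to 0.10 and MFAP5 -0.061 to 0.22. In BPA ewes the block gave MFAP5 0.22 and SPARC -0.37, and single libraries left out gave MFAP5 -0.34 to 0.22 and SPARC -0.33 to 0.47. For the difference of BPA effects the block gave BGN -0.040, MFAP5 0.18 and THBS1 -0.18, and without single libraries MFAP5 was -0.42 to 0.14 and POSTN -0.28 to 0.05. Depth limits FMOD, which had 6 to 16 reads in subcutaneous BPA libraries.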
